A study of Mus musculus with 2 samples.

Results

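The receptors with which natural killer (NK) cells read their targets were followed in immune cells from B16-OVA tumors, a mouse melanoma line that expresses ovalbumin. They were 10 genes of the 31053 in the count tables, taken from a given list: *Klra3*, *Klra4*, *Klra7*, *Klra8* and *Klra9* of the Ly49 family, *Klrd1*, *Klrc1*, *Klrc2*, *Klrk1* and *Ncr1*. Each was measured in every library and none fell below the minimum of 50 UMIs (unique molecular identifiers, counted transcripts) in NK or CD8 T cells.

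The cells were tumor-infiltrating immune cells (TIIs) of male C57BL/6J mice aged 8 to 12 weeks, read by single-cell RNA sequencing in 1 library per group. The control group was labelled nontreated and PBS, and the creatine group received 10.5 mg of creatine intraperitoneally each day from day 3 after tumor inoculation. Both groups carried the same tumor line, and in each group 4 day 14 tumors were combined, sorted as live CD45.2+ cells and loaded as 10000 cells on a 10x Genomics 3′ platform. The pooled tumors leave no animal replicates: the 2 libraries are compared with each other, intervals cover counting error only, and a treatment effect cannot be told apart from a difference between pools. The protocol text of the control library also names the creatine injection, and a harvest on day 10 and pools of 5 mice are given elsewhere in the study's text. The groups used here rest on the title and the PBS or creatine label.

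NK cells carry inhibitory receptors that recognize self MHC class I and activating receptors that recognize viral or stress-induced ligands, and the balance of these signals sets whether a target is killed. The Ly49 receptors are lectin-like dimers encoded by a gene cluster in which each NK cell transcribes a few members, so that NK cells differ from each other in their receptor set. *Klra3* (Ly49C), *Klra9* (Ly49I) and *Klra7* (Ly49G2) are inhibitory, whereas *Klra4* (Ly49D) and *Klra8* (Ly49H) are activating and signal through the adaptor DAP12, encoded by *Tyrobp*. *Klrd1* (CD94) pairs with *Klrc1* (NKG2A, inhibitory) or *Klrc2* (NKG2C, activating) to bind Qa-1, *Klrk1* (NKG2D) binds stress-induced ligands, and *Ncr1* (NKp46) is an activating receptor used to define NK cells. Activated CD8 T cells also transcribe *Klrd1*, *Klrc1* and *Klrk1*.

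Inhibitory members carry an immunoreceptor tyrosine-based inhibitory motif (ITIM) near their start: isoleucine, valine or leucine, any residue, tyrosine, any pair of residues, and again one of the first set. The first 60 coding bases, read from the GENCODE M21 transcripts (GRCm38), show how closely the members match in sequence and where they part in signaling. Capitals mark the motif's 18 bases in the inhibitory members and the same bases, 16 to 33 of the coding sequence, in the activating Ly49 members.
Klra3: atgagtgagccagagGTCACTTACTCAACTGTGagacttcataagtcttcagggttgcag
Klra9: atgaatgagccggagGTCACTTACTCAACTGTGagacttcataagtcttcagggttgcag
Klra7: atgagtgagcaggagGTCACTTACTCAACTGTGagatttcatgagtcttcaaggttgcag
Klra4: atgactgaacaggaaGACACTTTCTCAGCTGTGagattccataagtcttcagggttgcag
Klra8: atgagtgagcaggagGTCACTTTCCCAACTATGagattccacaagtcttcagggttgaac
Klrc1: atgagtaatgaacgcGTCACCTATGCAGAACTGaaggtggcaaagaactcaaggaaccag
The tyrosine codon at residue 8 was TAC in *Klra3*, *Klra9* and *Klra7* and TAT in *Klrc1*, whereas *Klra4* and *Klra8* carried TTC, the codon for phenylalanine, at that place. The *Klrc2* transcript held no such motif in its first residues. The same likeness limits single Ly49 values, because a read that fits several genes cannot be assigned. Of the 50-base windows in the last 500 bases of the longest coding transcript, which 3′ sequencing reads, 44.8% in *Klra9*, 42.4% in *Klra3*, 27.5% in *Klra7*, 13.1% in *Klra8* and 4.66% in *Klra4* occurred in a transcript of another gene. *Klra3* and *Klra9* shared 29.3% of their windows with each other, and 56.3% of the *Klrc1* windows occurred in *Klrc2*, whereas *Klrc2*, *Klrd1*, *Klrk1* and *Ncr1* shared none in this window set. The shared *Klra7* windows all occurred in *Klra13-ps*, which is not among the genes counted here. The 9 lectin-like genes lie on chromosome 6 of GRCm38, from *Klrd1* at 129591782 to 129598775 on the plus strand to *Klra3* at 130323289 to 130337574 on the minus strand, and *Ncr1* lies on chromosome 7 from 4337724 to 4345164.

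Cells with at most 25% mitochondrial UMIs were kept, 7241 of 7649 in the control and 6229 of 6503 in the creatine library, with 79319769 and 72091124 UMIs. Cells were assigned to classes by marker genes outside the 10, and NK cells needed UMIs of at least 2 of *Klrb1c*, *Klre1*, *Klri2*, *Txk*, *Eomes* and *Gzma* and none of the *Cd3* genes, *Csf1r* or *Cd79a*. This gave 598 control and 962 creatine NK cells, or 8.26% (7.63–8.92) and 15.4% (14.6–16.4) of the cells kept, and 2532 and 2061 CD8 T cells. The NK cells had a median of 3878 and 5434 UMIs and the CD8 T cells 9340 and 11547, so shares of cells are given after each cell was thinned to 2000 UMIs. Of the barcodes kept, 29 occurred in both libraries. In the NK class *Prf1* stood at 532 and 998 CPM (the gene's UMIs scaled to a common total for the summed cells) and *Tyrobp* at 1906 and 2277 CPM. *Tyrobp* does not set NK cells apart from monocytes and tumor-associated macrophages, where it stood at 2241 and 2781 CPM. Of the T cell genes, *Trac* stood at 22.6 and 22.5 CPM in NK cells and *Trbc2* at 257 and 289 CPM. In CD8 T cells they stood at 568 and 755 CPM and at 1360 and 1402 CPM. The B cell gene *Ms4a1* was at 0 UMIs in NK cells of both libraries. RNA of other cells was higher in the control NK cells, where *Cst3* stood at 510 CPM against 135, *Lyz2* at 96.0 against 52.2, *C1qb* at 76.0 against 28.5 and the melanocyte gene *Dct* at 229 against 14.6. The part of this RNA in the ratios was not tested.

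To ask whether NK cells of creatine-treated mice transcribed these receptors at other levels, the CPM of the summed cells was compared. None of the 10 genes differed by 1.5 times or more, while 3.61% of the 8758 genes with at least 50 UMIs were higher and 4.58% lower by that margin. The median log2 ratio of the 10 genes, creatine over control, was 0.07, beside 0.02 over those 8758 genes. Of the 10 values 9 were above 0, some of them by little, beside 4745 of the 8758. *Ncr1* and *Klra9* had the 2 highest ratios of the 10.

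Of the inhibitory Ly49 genes, *Klra9* stood at 244 CPM (225–263) in control and 326 (312–341) in creatine NK cells, a log2 ratio of 0.42 (0.29–0.55). *Klra3* stood at 122 (109–136) and 126 (118–136), a ratio of 0.05 (−0.14 to 0.24), and *Klra7* at 475 and 488, a ratio of 0.04 (−0.06 to 0.13). Thus the libraries were apart for *Klra9*, and the intervals of the other inhibitory members held 0. *Klra9* shares sequence with *Klra3*, and the effect of shared reads on its ratio was not tested. The activating Ly49 genes were level between the libraries within counting error, with *Klra4* at 712 and 740 CPM, a ratio of 0.06 (−0.02 to 0.13), and *Klra8* at 480 and 471, a ratio of −0.03 (−0.12 to 0.07). The UMIs of the 3 inhibitory over those of the 2 activating genes were 0.706 (0.669–0.746) in control and 0.777 (0.750–0.805) in creatine cells, a log2 change of 0.14 (0.05–0.23). *Klra9* held 647 of the 5400 UMIs of the 5 Ly49 genes in control cells and 1925 of 12696, or 15.2% (14.5–15.8), in creatine cells, and *Klra3* held 6.02% and 5.88%.

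Among the CD94 receptors, *Klrd1* stood at 916 and 987 CPM, a log2 ratio of 0.11 (0.04–0.18), *Klrc1* at 154 and 174, a ratio of 0.17 (0.01–0.34), and *Klrc2* at 235 and 249, a ratio of 0.08 (−0.05 to 0.22). The *Klrc1* over *Klrc2* balance did not move beyond its interval, with a log2 change of 0.09 (−0.12 to 0.30). *Klrk1* was nearly equal, at 1079 CPM in control and 1088 in creatine cells, a log2 ratio of 0.01 (−0.05 to 0.08). *Ncr1* had the highest ratio, with 467 CPM (442–494) in control and 649 (628–669) in creatine cells, a log2 ratio of 0.47 (0.38–0.57). It was detected in 55.0% (50.7–59.2) of control and 67.3% (64.2–70.3) of creatine NK cells at equal depth. Over 12 alternatives the *Ncr1* ratio lay between 0.40 and 0.57 and the *Klra9* ratio between 0.35 and 0.75, and *Klra9* passed 1.5 times when mature and other NK cells were weighted equally.

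**Figure D1:**
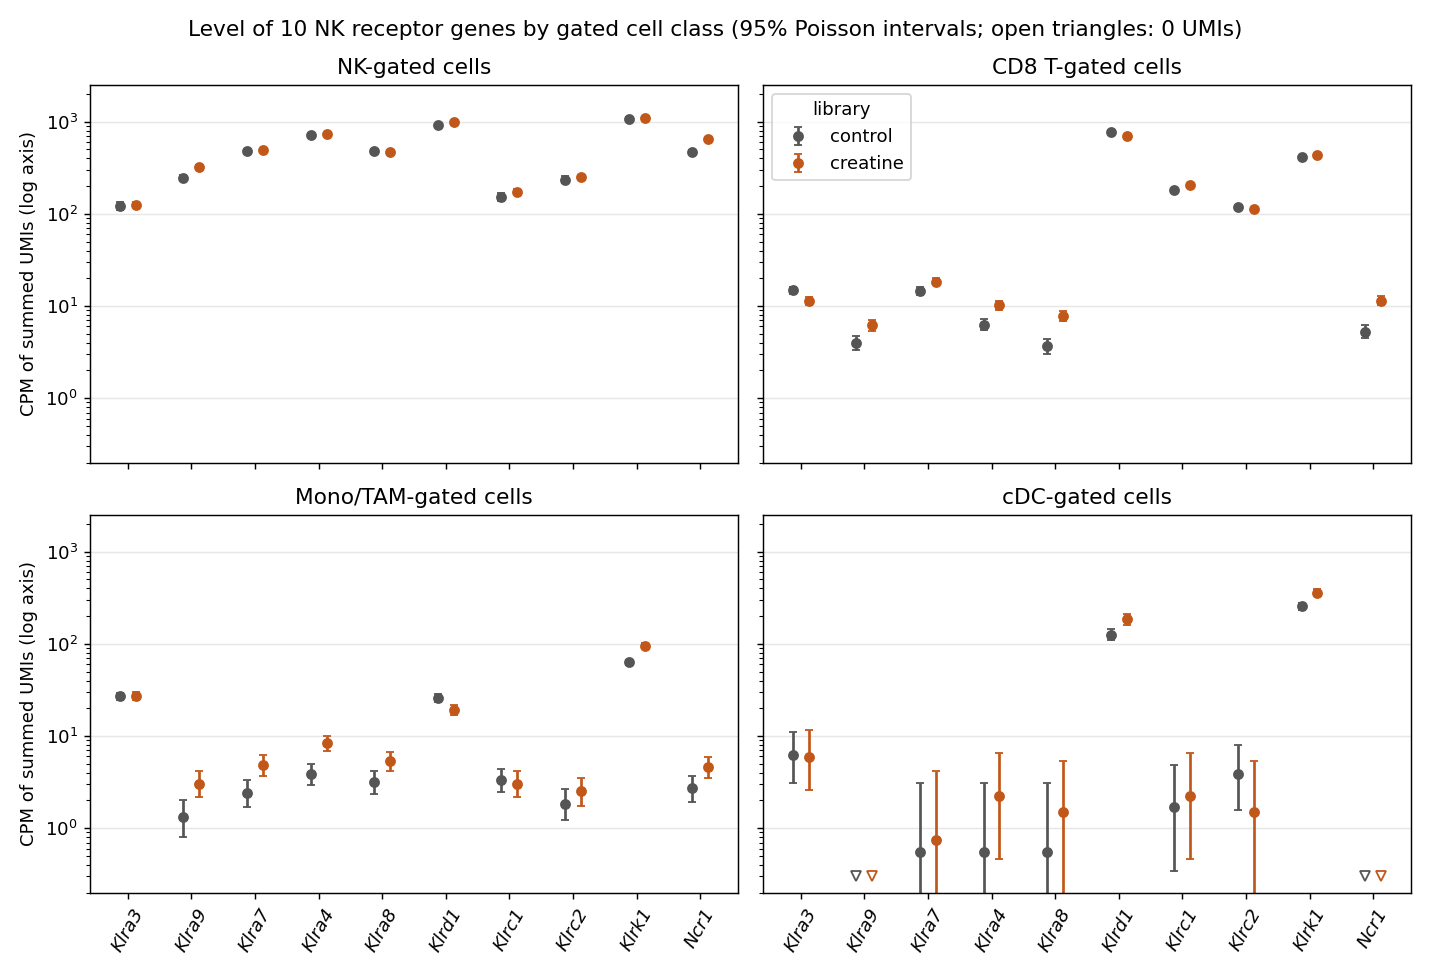
Level of the 10 receptor genes in CPM of summed UMIs (log axis) in 4 gated cell classes, control in grey and creatine in orange, with 95% Poisson intervals, and genes at 0 UMIs as open triangles. In NK cells all 10 genes lie between 122 and 1088 CPM, whereas in CD8 T cells the Ly49 genes and *Ncr1* lie at or below 18.4 CPM.

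**Figure D2:**
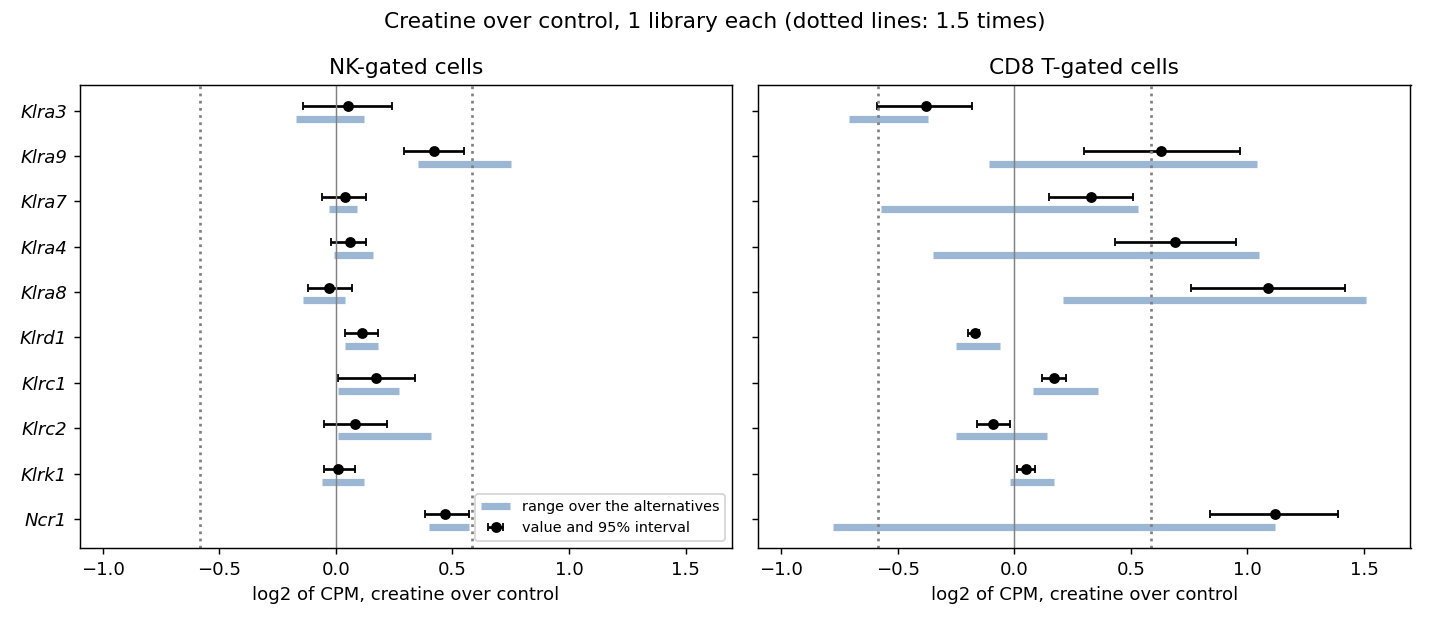
Log2 of the CPM ratio, creatine over control, in NK and CD8 T cells, with 95% intervals (points), the range over the alternative processing settings (blue bars) and the 1.5-fold marks (dotted). No NK value passes a mark and the NK bars of *Ncr1*, *Klra9*, *Klrd1*, *Klrc1* and *Klrc2* stay above 0. In CD8 T cells the bars of *Klra4*, *Klra7*, *Klra9*, *Klrc2*, *Klrk1* and *Ncr1* cross 0.

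The NK cells of the libraries differed in their share of mature cells. Cells with at least 2 of the mature markers *Klrg1*, *Itgam*, *S1pr5*, *Zeb2*, *Ly6c2* and *Cma1* were 7.96% (5.84–10.5) of control and 17.0% (14.6–19.6) of creatine NK cells. In the cells with fewer mature markers, which were the larger set in both libraries, *Ncr1* stood at 463 and 620 CPM, a ratio of 0.42 (0.32–0.52), and *Klra9* at 235 and 273, a ratio of 0.22 (0.07–0.36). In the mature cells, 44 in control and 157 in creatine, *Klra9* stood at 355 and 718 CPM, a ratio of 1.01 (0.62–1.43), and *Klrc2* at 241 and 399, a ratio of 0.73 (0.25–1.24). *Ncr1* stood at 524 and 848, a ratio of 0.69 (0.37–1.04), and the ratios of the other 7 genes lay between −0.24 and 0.33 there. At equal depth *Ncr1* was detected in 70.5% (54.8–83.2) of mature control and 72.6% (64.9–79.4) of mature creatine cells. *Klra9* was detected in 34.1% and 52.9% and *Klrc2* in 36.4% and 52.9%, and the intervals of all these shares overlapped between the libraries. Whether the ratios differed between mature and other cells was not tested, and the values of the mature control cells rest on few cells.

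NK cells that carried a marker of type 1 innate lymphoid cells (ILC1), *Il7r*, *Cxcr6*, *Itga1* or *Tmem176b*, had a different receptor set in both libraries. These were 91 control and 125 creatine cells, 16.5% and 13.5% of the NK cells thinned. *Klra4* was detected in 19.8% (12.2–29.4) of them in control and 19.2% (12.7–27.2) in creatine, against 47.2% (42.6–51.9) and 51.6% (48.0–55.1) of the NK cells without such a marker. *Klra8* was detected in 18.7% and 17.6% against 43.7% and 45.4%, and *Klra7* in 18.7% and 23.2% against 43.9% and 43.8%. *Klrc1* ran the other way, in 41.8% (31.5–52.6) and 30.4% (22.5–39.3) of ILC1-marker cells against 21.9% (18.2–25.9) and 23.4% (20.5–26.5), so that the intervals lay apart in control and overlapped in creatine. *Ncr1* was detected in 53.8% and 63.2% of ILC1-marker cells and in 55.2% and 68.0% of the others, and *Klrk1* in 83.5% to 89.0% of all 4 sets. *Klra7* within the ILC1-marker cells stood at 145 CPM in control and 285 in creatine, a log2 ratio of 0.97 (0.58–1.38), while in the cells without a marker it stood at 536 and 524. The ratio in ILC1-marker cells rests on few cells, as *Klra7* was detected in 17 control and 29 creatine cells at equal depth. The intervals of these shares overlapped, at 11.3–28.2% and 16.1–31.6%. Thus 3 Ly49 genes were found less often in ILC1-marker cells, with intervals apart in both libraries, whereas *Ncr1* and *Klrk1* were spread over both sets.

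**Figure D3:**
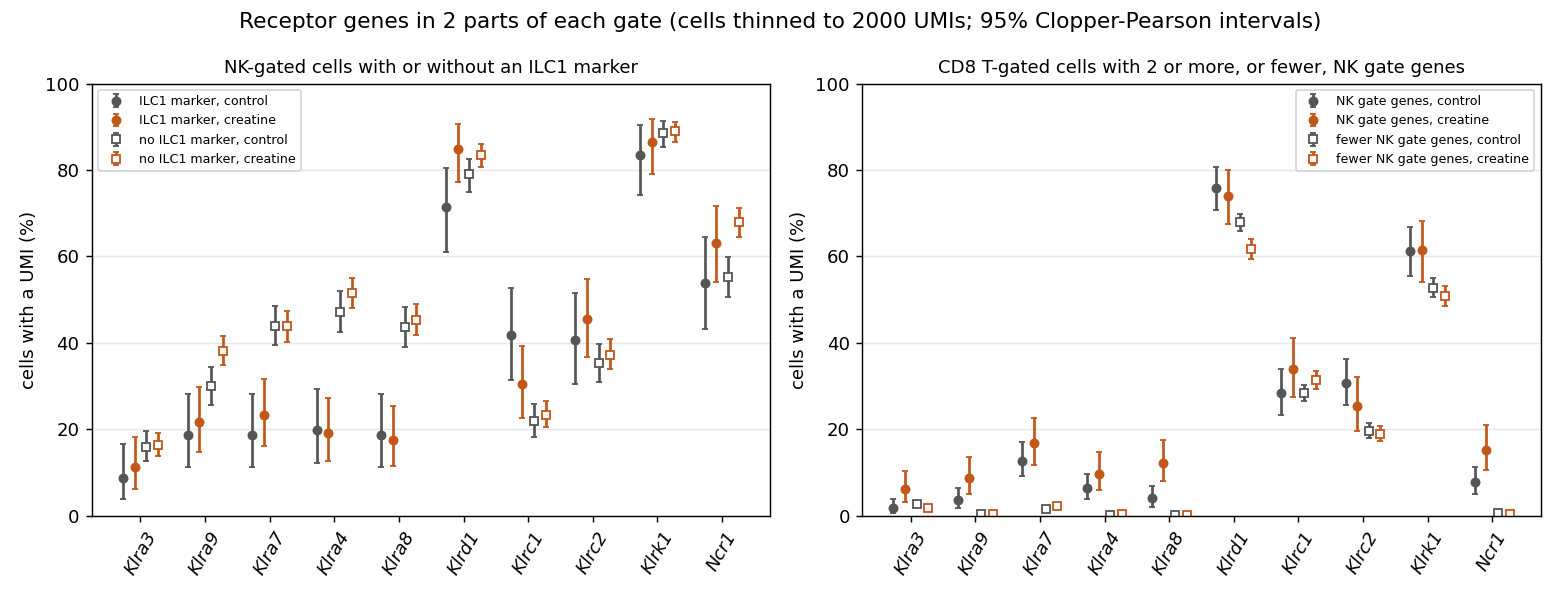
Cells with a UMI of each receptor gene (%) after thinning to 2000 UMIs, with 95% Clopper-Pearson intervals: left, NK cells with (filled circles) or without (open squares) an ILC1 marker; right, CD8 T cells with at least 2 NK marker genes (filled) or fewer (open). *Klra7*, *Klra4* and *Klra8* lie between 17.6% and 23.2% in ILC1-marker NK cells and between 43.7% and 51.6% in the others, and among CD8 T cells *Klra4*, *Klra8*, *Klra9* and *Ncr1* lie below 1% in cells with fewer NK marker genes.

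Which receptors were found in the same cell was examined next. A UMI of any of the 5 Ly49 genes was found in 80.1% (76.5–83.4) of control and 83.4% (80.9–85.8) of creatine NK cells at equal depth. In control cells 25.7% had 1 of the 5 genes, 30.9% had 2, 17.5% had 3, 5.24% had 4 and 0.723% had all 5, and in creatine cells the shares were 23.6%, 30.4%, 21.1%, 7.90% and 0.433%. If the genes were spread over cells independently at their own shares, 12.8% of control and 9.82% of creatine cells would have none of them, whereas 19.9% (16.6–23.5) and 16.6% (14.2–19.1) had none. Inhibitory and activating Ly49 genes occurred together in 44.1% (39.9–48.4) of control and 48.6% (45.3–51.9) of creatine cells, which was 1.14 and 1.12 times the number from their shares. Inhibitory members alone were found in 20.1% and 19.6% of cells, and activating members alone in 15.9% and 15.3%. The libraries were close in each of these classes.

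Among Ly49 pairs, *Klra4* and *Klra8* were found together in 123 control cells against 93.5 from their shares, 1.32 times (1.09–1.57), and in 231 creatine cells against 182, 1.27 times (1.11–1.45). *Klra7* and *Klra4* were found together 1.27 times (1.05–1.52) and 1.17 times (1.02–1.34) as often. The highest value in control was that of *Klra9* with *Klra8*, 1.34 (1.06–1.66), against 1.15 (0.978–1.34) in creatine. In creatine it was that of *Klra3* with *Klra8*, 1.37 (83 cells against 60.4), against 1.06 (0.734–1.48) in control. For each of these pairs the Poisson interval held 1 in the other library, and no difference between the libraries is read from this. *Klra3* with *Klra7* and *Klra9* with *Klra7*, pairs of inhibitory members, stood at 0.838 (0.552–1.22) and 0.973 (0.743–1.25) in control cells and 0.992 (0.755–1.28) and 0.911 (0.757–1.09) in creatine cells, with intervals that held 1. The excess of *Klra4* with *Klra8* was 1.16 (0.958–1.40) and 1.18 (1.03–1.34) within the cells without ILC1 markers, and 1.30 and 1.26 without the highest doublet scores. That of *Klra7* with *Klra4* was 1.13 (0.925–1.36) and 1.10 (0.955–1.27) within the cells without ILC1 markers, with intervals that held 1. These Poisson intervals take the number from the shares as fixed and cover counting error only. With both genes' own counts fixed, a joint count varies less than a Poisson count, so the intervals are too wide. An interval that held 1 thus does not show that the 2 genes were spread independently.

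*Klrc1* was found together with 3 of the 5 Ly49 genes less often than the shares give in both libraries. It was found together with *Klra4* in 29 control cells against 59.3 from the shares, 0.489 times (0.327–0.702), and in 61 creatine cells against 106, 0.575 times (0.439–0.738). With *Klra8* the values were 0.545 (0.368–0.778) and 0.704 (0.544–0.896), and with *Klra7* 0.705 (0.502–0.964) and 0.780 (0.610–0.982). With *Klra9* the interval lay below 1 in control only, at 0.642 (0.415–0.947) and 0.853 (0.664–1.08), and with *Klra3* it held 1 in both, with 23 cells against 20.4 in control and 0.765 (0.504–1.11) in creatine. The share of NK cells with *Klrc1* with none of the 5 Ly49 genes was 55 of 110 (40.3–59.7%) in control and 45.8% (37.7–54.0) in creatine. It was 29.6% and 29.8% in cells with 1 of them, 14.6% and 17.4% in cells with 2, and 13.1% (7.81–20.1) and 15.1% in cells with 3 to 5. *Klrc2*, the activating counterpart, lay between 34.5% and 41.2% in all 4 sets of both libraries, and *Klrk1* between 83.6% and 93.1%. *Klrd1* went from 64.5% (54.9–73.4) of control cells with none to 87.7% (80.8–92.8) of those with 3 to 5, with intervals apart, and from 79.7% (72.5–85.8) to 85.3% (80.5–89.3) of creatine cells, with intervals that overlapped. Within the cells without ILC1 markers, *Klra4* with *Klrc1* stood at 0.567 (0.373–0.824) and 0.633 (0.484–0.813), *Klra8* with *Klrc1* at 0.589 (0.385–0.863) and 0.730 (0.560–0.936), and *Klra7* with *Klrc1* at 0.834 (0.587–1.15) and 0.842 (0.655–1.07). The interval of the *Klra7* pair thus held 1 in both libraries there, which does not show that this pair was spread independently, as these Poisson intervals are too wide. Of the genes in these pairs, *Klrc1* shared 56.3% of its windows, with *Klrc2*, *Klra7* shared 27.5% and *Klra8* 13.1%. The shared windows of *Klra4*, 4.66% in all, occurred in *Klra1*. The effect of shared reads on the pairs was not tested.

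**Figure D4:**
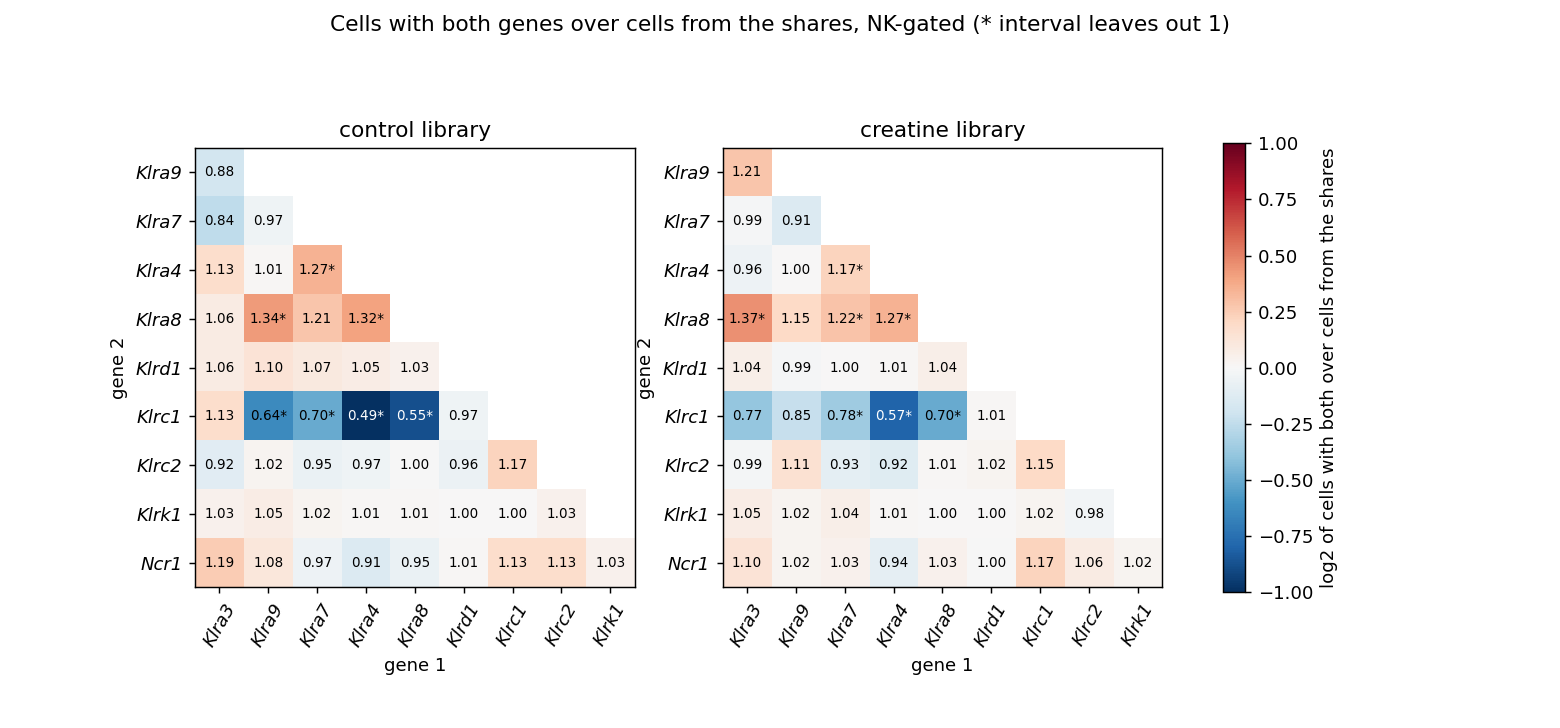
Number of NK cells with UMIs of both genes over the number from the genes' own shares, for all 45 pairs at 2000 UMIs per cell in the control and creatine library (color on a log2 scale, blue below 1, red above; stars where the 95% Poisson interval leaves out 1). The *Klrc1* row is blue against *Klra4*, *Klra7* and *Klra8* in both libraries, and *Klra4* with *Klra8* is red in both.

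**Figure D5:**
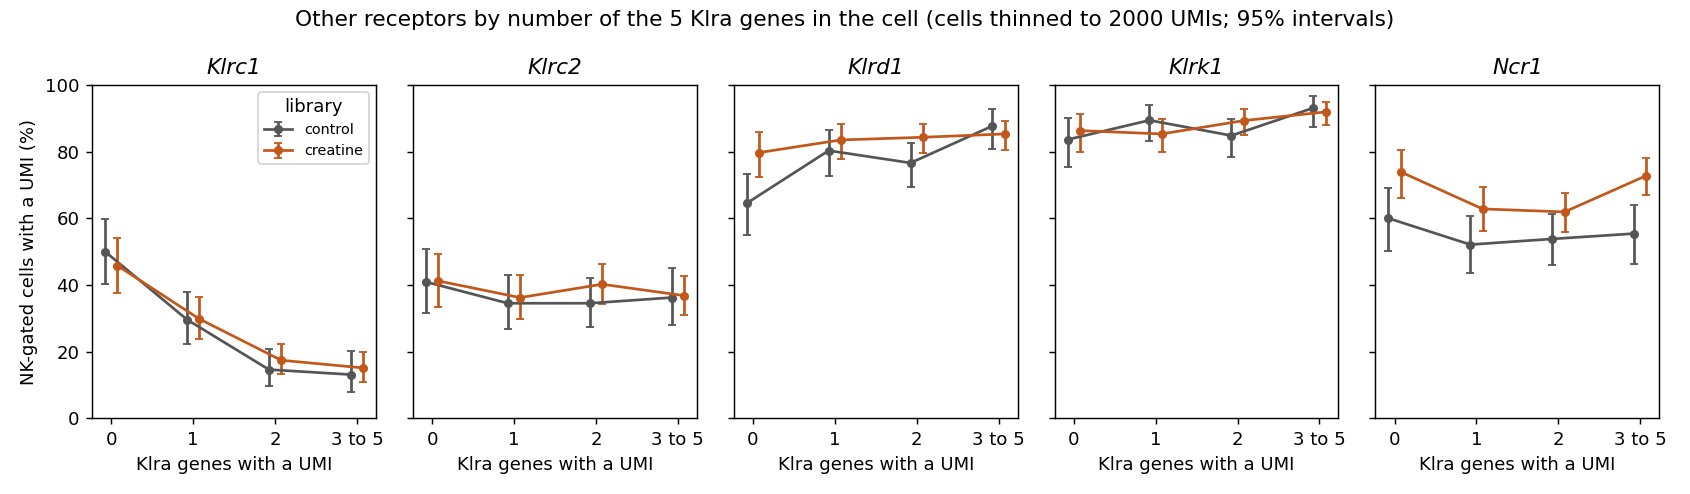
Share of NK cells (%) with a UMI of *Klrc1*, *Klrc2*, *Klrd1*, *Klrk1* or *Ncr1* by the number of the 5 Ly49 genes found in the same cell (0, 1, 2, or 3 to 5), with 95% Clopper-Pearson intervals. *Klrc1* is found in 55 of 110 control cells with none and in 13.1% of those with 3 to 5, and in 45.8% and 15.1% of creatine cells, while *Klrc2* stays between 34.5% and 41.2%.

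Receptors were then set beside their partner chains in the same cell. *Tyrobp*, which carries the signal of *Klra4*, *Klra8* and *Klrc2*, was found in 96.6% of control and 97.9% of creatine NK cells with *Klra4*. With *Klra8* the shares were 96.8% and 97.7%. *Tyrobp* was found in 95.5% and 96.1% of NK cells with *Klrc2* and in 95.2% and 97.0% of those without. NK cells without *Klra4* or without *Klra8* were not measured. *Hcst* (DAP10), the partner of *Klrk1*, was found in 74.8% (70.7–78.6) and 72.4% (69.2–75.4) of NK cells with *Klrk1* and in 72.1% and 66.7% of those without. *Klrd1* was found in 75.5% and 84.4% of NK cells with *Klrc1* and in 78.5% and 83.4% of those without. Where both sets were measured, the intervals of cells with and without the receptor overlapped. In CD8 T cells, by contrast, *Klrd1* was found in 77.5% (74.2–80.6) and 73.1% (69.4–76.5) of cells with *Klrc1* and in 65.5% (63.2–67.8) and 58.3% (55.7–60.9) of those without, and the intervals lay apart in both libraries. *Tyrobp* was found in 9.80% (7.36–12.7) and 7.30% (4.95–10.3) of CD8 T cells with *Klrc2*. It was found in 6.41% (5.36–7.60) and 5.52% (4.47–6.75) of those without, and the intervals overlapped in both libraries.

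The CD94 receptor genes and *Klrk1* stood at 38.6% or more of the NK level in CD8 T cells, and the Ly49 genes and *Ncr1* at 12.1% or less. *Klrc1* in CD8 T cells stood at 183 CPM in control and 206 in creatine, 119% (116–122) and 118% (115–121) of the NK level in the same library. *Klrd1* stood at 85.3% and 70.1% of the NK level, *Klrc2* at 50.8% and 45.1% and *Klrk1* at 38.6% and 39.6%. *Klra4*, *Klra8*, *Klra9* and *Ncr1* stood at 0.765% to 1.89%, *Klra7* at 3.08% and 3.78%, and *Klra3* at 12.1% and 8.98% (8.05–9.98).

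Between the libraries, *Klrd1* was lower in creatine CD8 T cells, at 781 and 692 CPM, a log2 ratio of −0.17 (−0.20 to −0.15), and was detected in 68.9% (67.0–70.8) of control and 63.0% (60.8–65.1) of creatine cells at equal depth. *Klrc1* was higher, with a ratio of 0.17 (0.12–0.22) and shares of 28.4% (26.6–30.2) and 31.7% (29.7–33.8). *Klrc2* had a ratio of −0.09 (−0.16 to −0.02) and *Klrk1* 0.05 (0.01–0.09). The *Klrc1* over *Klrc2* balance was 1.53 (1.47–1.60) in control and 1.83 (1.76–1.91) in creatine cells, a log2 change of 0.26 (0.17–0.34), and lay between 0.22 and 0.33 when the highest doublet scores, cells with NK marker genes or dividing cells were left out. The 4 gene ratios were below 1.5 times. Without the CD8 T cells that held 2 or more NK marker genes at full depth, which left 1138 and 1062 cells, the ratios were −0.06 for *Klrd1*, 0.36 for *Klrc1*, 0.14 for *Klrc2* and 0.17 for *Klrk1*, so that *Klrc2* turned its direction. *Klrd1*, *Klrc1*, *Klrc2* and *Klrk1* were found together in the same CD8 T cells more often than their shares give, for example *Klrc1* with *Klrc2* 1.39 times (1.20–1.60) in control and 1.47 times in creatine cells (185 against 126), though these genes share sequence. *Klrc1* was most frequent in the CD8 T cells with at least 2 of *Pdcd1*, *Havcr2*, *Lag3*, *Tigit* and *Tox*, at 34.2% (31.1–37.3) and 37.9% (34.6–41.3), and least in those with naive or memory markers, at 16.3% (11.9–21.5) and 13.4% (9.38–18.4). *Klra7* had the reverse order, at 0.979% and 1.17% in the first set and 12.6% (8.73–17.4) and 10.9% (7.26–15.6) in the second.

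The NK-type members had high ratios in CD8 T cells, but the values rested on few cells. Of the 10 genes, 4 were higher by 1.5 times or more, beside 3.52% of 11503 genes that were higher and 5.20% that were lower: *Ncr1* (5.29 and 11.4 CPM, a log2 ratio of 1.12), *Klra8* (3.67 and 7.82, 1.09), *Klra4* (6.30 and 10.2, 0.69) and *Klra9* (3.99 and 6.17, 0.63). *Klra3* was lower, at 14.8 and 11.4 CPM, a ratio of −0.38 (−0.59 to −0.18). At equal depth *Ncr1* was detected in 1.40% (0.971–1.95) of control and 1.88% (1.33–2.57) of creatine CD8 T cells. The share intervals of the 4 genes past 1.5 times all overlapped between the libraries. UMIs of *Klra8* were found in 39 control and 57 creatine CD8 T cells, and 5 cells held 45.7% and 28.3% of them. The CD8 T cells with *Klra4* or *Klra8* had at least 2 of the NK marker genes in 71.9% and 71.4% of cases and *Tyrobp* in 65.6% and 69.0%, and 28.1% and 38.1% of them were among the 6% of cells with the highest doublet scores. In the CD8 T cells with none of the 5 Ly49 genes or *Ncr1*, the same values were 10.2% and 6.86%, 5.28% and 3.37%, and 2.71% and 5.25%. Leaving out cells with 2 or more NK marker genes at full depth left 1138 and 1062 cells. In these the *Ncr1* ratio was −0.78, that of *Klra8* 0.22 and that of *Klra7* −0.57. With the NK marker genes counted on thinned cells, 2130 and 1829 cells were left. There *Ncr1* gave 0.90 (0.38–1.43), *Klra8* 1.02 (0.17–1.93) and *Klra7* 0.48 (0.24–0.73). At equal depth, however, *Ncr1* was found in 11 control and 8 creatine of these cells, *Klra8* in 5 and 3, and *Klra7* in 32 and 40. The intervals of these shares overlapped, and the ratio intervals do not cover UMIs held together in few cells. In the same cells the other 2 ratios were near 0. They were 0.06 (−0.61 to 0.74) for *Klra4* and 0.22 (−0.33 to 0.78) for *Klra9*, with intervals that held 0. Without the highest doublet scores, *Klra8* gave 0.21 and *Klra9* 0.24. Without cells with an *Ncr1* UMI, *Klra4* gave −0.35 and *Klra9* −0.11. Thus the direction of *Ncr1*, *Klra7*, *Klra4* and *Klra9* and the size of *Klra8* depended on which cells counted as CD8 T cells. The part of NK and T cell pairs captured as 1 cell was not tested. Exclusion by NK marker genes or *Ncr1* also leaves out any CD8 T cells that transcribe these genes themselves.

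Of the 5 Ly49 genes, *Klra3* took a larger part of the UMIs in CD8 T cells, monocytes and tumor-associated macrophages than in NK cells. In CD8 T cells *Klra7* did so too. *Klra7* held 33.7% and 34.2% of the Ly49 UMIs in CD8 T cells, against 23.4% and 22.7% in NK cells. *Klra3* made up 34.1% (31.6–36.7) and 21.0% (19.1–23.1) of the 5-gene Ly49 UMIs in CD8 T cells and 71.4% (67.5–75.0) and 55.9% (52.0–59.8) in monocytes and tumor-associated macrophages (Mono/TAM), against 6.02% and 5.88% in NK cells. CD8 T cells with *Klra3* and neither activating member were 60 in control and 40 in creatine, and they had at least 2 NK marker genes in 6.67% and 22.5% of cases and *Tyrobp* in 10.0% and 12.5%. The CD8 T cell ratio of −0.38 stayed between −0.71 and −0.37 over 13 alternatives, but it was not uniform within the class. It was −0.92 (−1.27 to −0.57) in cells with at least 2 of *Pdcd1*, *Havcr2*, *Lag3*, *Tigit* and *Tox*. In cells with naive or memory markers it was 0.28 (−0.37 to 0.94), and in the rest −0.10 (−0.38 to 0.18). In cells with at least 2 NK marker genes after thinning it was 1.08 (0.60–1.56). These differences were not tested. In Mono/TAM cells *Klra3* stood at 26.9 and 27.3 CPM, 22.0% (19.9–24.2) and 21.6% (19.5–24.0) of the NK level, while *Klra9*, *Klra7*, *Klra4*, *Klra8* and *Ncr1* stood at 0.512% to 1.14%. The proportions of the Ly49 genes to each other thus differed between Mono/TAM and NK cells of the same library. *Klra3* was detected in 5.11% (3.56–7.06) and 10.3% (6.98–14.6) of the C1q-positive Mono/TAM cells, where it stood at 34.3 and 53.7 CPM, a log2 ratio of 0.65 (0.43–0.86). The cells with *Ace* or *Adgre4* held 5 and 1 of its UMIs. The remaining Mono/TAM cells held 31 and 16, at 8.15 and 3.19 CPM, a log2 ratio of −1.35 (−2.32 to −0.44). C1q-positive cells were 57.6% of control and 27.7% of creatine Mono/TAM cells. The near-equal level of the whole class thus joins subsets with ratios in opposite directions, and their difference was not tested. The UMIs of *Klra3* in Mono/TAM cells were spread over 184 control and 122 creatine cells, with 12.5% and 17.9% in the top 5, whereas the top 5 cells held 79.7% and 59.8% of the *Klra4* UMIs. *Klra2*, a family member outside the 10, stood at 81.2 and 149 CPM in Mono/TAM cells and at 1.13 and 1.86 CPM in NK cells. Reads from sequence that *Klra3* shares with other genes could not be separated.

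*Klrk1* and *Klrd1* were also found in dendritic cells. In conventional dendritic cells (cDCs), *Klrk1* stood at 255 (232–280) and 358 (326–391) CPM, a log2 ratio of 0.49 (0.30–0.67), and *Klrd1* at 126 and 184, a ratio of 0.55 (0.28–0.81). A UMI of *Klrk1* was found in 40.7% (31.6–50.4) of 113 control and 38.9% (29.1–49.5) of 95 creatine cDCs at equal depth, so no order is read from the share. The cDC sets also differed in other markers, with *Lyz2* at 1100 and 3625 CPM, *C1qb* at 413 and 74.3, *Siglech* at 20.1 and 155, *Ly6d* at 4.47 and 46.8 and *Cst3* at 15045 and 9616, and their part in these ratios was not tested. *Ncr1* and *Klra9* were at 0 UMIs in both cDC sets, below a limit of 1.68 and 2.23 CPM that 3 UMIs would give, and *Klrc1* was at 3 UMIs in each. In Mono/TAM cells *Klrk1* stood at 63.2 and 95.8 CPM, a ratio of 0.60 (0.48–0.72), found in 11.2% (9.40–13.1) and 14.6% (12.4–17.0) of cells. The C1q-positive share of Mono/TAM cells was 57.6% in control and 27.7% in creatine, and the *Klrk1* ratio differed in size between the subsets. It was 0.91 (0.72–1.09) in the C1q-positive cells, at 42.7 and 80.0 CPM, 0.35 (−0.40 to 1.17) in the cells with *Ace* or *Adgre4*, and 0.11 (−0.06 to 0.28) in the rest, at 126 and 136 CPM, and the difference between subsets was not tested. By level, the order for *Klrk1* was NK, CD8 T, cDC, Mono/TAM and CD4 T cells in both libraries, with CD4 T cells at 60.5 and 59.2 CPM and overlapping Mono/TAM in control. For *Klrd1* it was NK, CD8 T, cDC, CD4 T and Mono/TAM cells. B cells, 26 and 34, were too few to place.

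The genes around the receptors came from lists of the same pathway. Of all 8758 genes with at least 50 UMIs in NK cells, 3.61% were higher and 4.58% lower by 1.5 times. Of 16 adaptor and signaling genes, 15 had at least 50 UMIs in NK cells and none differed by 1.5 times. Their median log2 ratio was 0.09, with *Cd247*, a signaling chain of *Ncr1*, highest at 53.1 and 74.9 CPM (0.50, 0.22 to 0.78) and *Vav1* next at 0.36 (0.04–0.68). *Hcst* was lowest, at 778 and 615 CPM (−0.34, −0.42 to −0.26), and the phosphatase gene *Ptpn11* stood at −0.14 (−0.47 to 0.20). Of 16 further lectin-like genes in the files, 10 had enough UMIs and 1 was past 1.5 times, the maturation marker *Klrg1* at 24.1 and 36.8 CPM (0.61, 0.20 to 1.04). Among the 10, *Klrb1c*, *Klre1* and *Klri2* are also marker genes by which NK cells were assigned. *Klra1*, a Ly49 gene that shares sequence with *Klra4*, stood at 101 and 145 CPM (0.51, 0.31 to 0.72), whereas *Klrb1b* (287 and 208 CPM, −0.47) and *Klrb1a* (193 and 166 CPM, −0.21) were lower. Of 9 other NK receptors, 8 had enough UMIs, with *Cd226* (29.0 and 45.3 CPM, 0.64) and *Slamf7* (67.0 and 101 CPM, 0.59) past 1.5 times upward, *Slamf6* (26.0 and 15.6 CPM, −0.74) past it downward and *Fcgr3* at −0.37.

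Ligand genes were read in the same cells. *H2-T23*, which encodes the Qa-1 ligand of the CD94 receptors, stood at 228 and 266 CPM in NK cells (0.23, 0.09 to 0.36), at 239 and 286 in CD8 T cells (0.26, 0.21 to 0.30) and at 332 and 461 in Mono/TAM cells (0.47, 0.42 to 0.53). *H2-K1* and *H2-D1*, ligands of Ly49 receptors, stood at 0.15 (0.11–0.20) and 0.04 (0.00–0.09) in NK cells. *Ulbp1*, a *Klrk1* ligand, was found with 25 and 70 UMIs in NK cells and at 31.0 and 26.7 CPM in CD8 T cells (−0.22, −0.35 to −0.08). *Raet1e* and *H60c* were at 0 UMIs in NK cells of both libraries, and tumor cells, where stress ligands are read by NK cells, were not the sorted population.

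Across the 6 cell classes in both libraries, the genes whose log2 level was most like the sum of the 10 were *Prss2* (Pearson r = 0.914), *Klrc3* (0.912), *Chl1* (0.905), *Ccl5* (0.899) and *Klra6* (0.898), over 12 values and 11905 genes. The 12 values share 2 libraries and differ mostly between NK and CD8 T cells on one side and the other classes on the other, so these are descriptions. *Ccl5* was abundant, at 5222 and 6563 CPM in NK cells, whereas the other 4 stood below 10 CPM there.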

How the data were processed

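The authors aligned the reads with Cell Ranger 3.0.2 (mm10) and deposited 1 matrix of raw UMI counts per library. Cells needed 300 UMIs, 100 genes and at most 25% mitochondrial UMIs, and no cell failed the first 2 limits. Classes were gated by marker genes without the 10 members, and 31 control and 20 creatine cells in 2 gates were left out. The members and lists were chosen with earlier results of these data known. The Mono/TAM subsets, the counts by number of Ly49 genes, the pairs within subsets, *Klra2* and *Klra17* were chosen after values were seen. UMIs were summed per class as CPM with exact Poisson 95% intervals. Ratios carry exact conditional binomial intervals, changes of balance Woolf intervals, and shares Clopper-Pearson intervals. With 1 library per group no test was run and no p-value is given. The 3′ counts were not divided by length, so levels are not compared between genes. Doublets were kept and scored with Scrublet in scanpy 1.11.5. All 10 members are named, and from each of 4 lists the 2 highest and 2 lowest NK ratios among genes with at least 50 UMIs. The genes most like the members were ranked by Pearson correlation of log2(CPM + 1). Scripts were tested on simulated data. Alternatives were TMM (edgeR 4.0.16) and median-of-ratios factors, other cell filters, gates and weights, other thinning, and doublets left out.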

Additional observations from a re-analysis of the deposited data

Results flagged for a closer look

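The log2 ratio of *Klrd1* was 0.11 in NK cells and −0.17 in CD8 T cells, with intervals on opposite sides of 0, and the difference between the cell types was not tested. The same held for *Slamf6*, with −0.74 in NK cells and 0.34 in CD8 T cells, and for the balance of inhibitory over activating Ly49 UMIs, with a log2 change of 0.14 in NK cells and −0.75 in CD8 T cells. Neither difference was tested. In CD8 T cells the balance was −1.04 without cells with 2 or more NK marker genes and −0.61 without the highest doublet scores.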

How the results depend on the processing

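No paired analysis was possible because each group was 1 library, and none could be left out. Of the alternative values for the main comparisons, 144 stayed within the interval of the value (counts within 1.5 times) and 40 did not. Of those for single genes, 204 stayed, 48 did not and 3 were classed as reversed. This class does not hold every change of sign. In CD8 T cells the lowest ratios of *Ncr1*, *Klra7*, *Klra4*, *Klra9* and *Klrk1* were −0.78, −0.57, −0.35, −0.11 and −0.02, and the highest of *Klrc2* was 0.14. In NK cells *Klra3*, *Klra7*, *Klra4* and *Klrk1* had lowest ratios from −0.17 to −0.01, and *Klra8* a highest of 0.04. The cause of these changes was not tested. Leaving out cells with *Ncr1*, cells rich in *Lyz2*, *C1qb* and *Cst3*, or *Klra3*, and all alternatives for the CD8 T cell balances, were chosen after seeing the data. Leaving out the cells rich in *Lyz2*, *C1qb* and *Cst3* removed few NK cells (591 and 958 were left), so it bears little on the NK ratios. In NK cells, the summed Ly49 ratio of 0.08 was 0.01 without mitochondrial and ribosomal protein genes, 0.14 with equal weight per cell, 0.02 with 3 NK marker genes required and 0.16 with mature and other cells weighted equally. That weighting put 1 member past 1.5 times and gave 1169 genes higher and 815 lower. With no minimum of UMIs, 2450 genes were higher and 2842 lower in NK cells and 2464 and 3260 in CD8 T cells. The Ly49 balance in NK cells was 0.28 with gates on thinned counts, and the *Klrc1* over *Klrc2* balance −0.13 by number of thinned cells. In CD8 T cells, the summed Ly49 ratio of 0.31 was 0.05 without the highest doublet scores, 0.15 with gates on thinned counts, 0.13 with 2 *Cd8a* and *Cd8b1* UMIs required, −0.47 without cells with 2 or more NK marker genes and −0.22 without cells with *Ncr1*. The members higher by 1.5 times were 2 without doublets, 2 with gates on thinned counts, 1 without cells with NK marker genes and 0 without cells with *Ncr1*, and those lower were 1 with 2 *Cd8* UMIs required, 2 without cells with NK marker genes and 1 without cells with *Ncr1*. Of all 11503 genes in CD8 T cells, 405 were higher and 598 lower in the main setting. Over the alternatives these counts lay between 286 and 2464 and between 423 and 3260. The upper ends, 2464 and 3260, came from the setting with no minimum of UMIs. The share of all genes was not set beside each member count, so whether the members exceeded it in these settings was not tested. Without cells with *Ncr1*, *Klra9* was −0.11 and *Klra4* −0.35. Without cells with 2 or more NK marker genes, *Ncr1* was −0.78 when these were counted at full depth. It was 0.90 (0.38–1.43) when they were counted on thinned cells, where *Ncr1* was found in 11 control and 8 creatine cells at equal depth. Shares depended on depth. At 1000 UMIs and not thinned, *Ncr1* was found in 37.0% and 74.2% of control and 43.8% and 89.1% of creatine NK cells, and *Klrc1* in 16.6% and 68.7% of control and 19.4% and 68.0% of creatine CD8 T cells. Any Ly49 gene was found in 70.9% of control NK cells at 1000 UMIs, in 75.7% and 87.5% of creatine NK cells, in 4.02% and 16.2% of control CD8 T cells and in 4.68% and 17.0% of creatine CD8 T cells.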
